A study of Mus musculus with 6 samples.

Results

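The genes described here are 38 antioxidant genes of the transcription factor NRF2 (gene Nfe2l2), glutathione and thioredoxin systems, followed in alveolar macrophages with and without the histone deacetylase Hdac3. They were chosen by name, from a list drawn up with earlier results of these data known. All 38 were found among the 18392 genes of the deposited table. RNA was sequenced from macrophages sorted from digested lungs of C57BL/6 mice 6 weeks of age, and levels are gene-level FPKM, which are scaled for transcript length and for each library's mapped fragments. The knockout libraries (3) came from Cd11c-CreHdac3fl/fl mice, in which the Cd11c (Itgax) promoter drives Cre recombinase, and the control libraries (3) from Hdac3fl/fl mice, which carry the same floxed alleles without Cre. Cd11c is not restricted to alveolar macrophages, since dendritic cells also use its promoter. The labels do not say whether a library is 1 mouse or a pool, so the tests speak to differences among these libraries, whose spread may be technical.

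Hdac3 had 4.36, 5.05 and 3.97 FPKM in the knockout libraries, against 17.7, 19.9 and 16.9 FPKM in the control libraries. It fell in every knockout library (log2 change -1.81, SE 0.09, limma adjusted p = 6.8e-07; -1.46 after TMM). TMM (trimmed mean of M values) is another way of putting libraries on 1 scale, after trimming the genes that differ most. Of 14 alveolar macrophage markers, 4 rose and 8 fell as deposited, and 5 rose and 7 fell after TMM. Of all tested genes, 11.0% rose and 58.8% fell as deposited, and 31.7% rose and 24.8% fell after TMM. None of the 14 was near 0. Siglecf, a defining surface lectin, averaged 226 ± 9.62 FPKM in knockouts and 234 ± 3.93 FPKM in controls (SD, n = 3 each). Ear1 fell most, with 31.8 ± 2.49 FPKM in knockouts and 980 ± 57.8 FPKM in controls (SD, n = 3 each). Car4 rose most, with 1749 ± 264 FPKM in knockouts and 407 ± 119 FPKM in controls (SD, n = 3 each). Markers of other cell types were detected in both groups. Scgb1a1, a secretory airway cell marker, averaged 22.1 ± 29.8 FPKM in knockouts and 85.1 ± 69.3 FPKM in controls (SD, n = 3 each), and the hemoglobin gene Hba-a1 averaged 16.3 ± 15.4 FPKM in knockouts and 72.3 ± 47.4 FPKM in controls (SD, n = 3 each). The 8 markers of the alveolar epithelium list, which holds Scgb1a1, summed to between 27.2 and 96.0 FPKM in knockout libraries. In control libraries they summed to between 101.5 and 300.6 FPKM. In the libraries at the upper ends, Scgb1a1 had 56.5 FPKM (knockout replicate 3) and 163 FPKM (control replicate 1). Of the 8 markers, 5 fell as deposited and 2 after TMM. Epcam fell most, with 0.15, 0.03 and 0.03 FPKM in knockouts, against 18.9, 18.3 and 14.7 FPKM in controls (log2 change -4.09; -3.89 after TMM). Hopx and Scgb1a1 were not called under either scaling. The 7 lymphocyte markers in the table summed to between 4.93 and 6.31 FPKM in knockouts and between 14.5 and 28.3 FPKM in controls, and 5 of them fell. Erythroid markers summed to between 14.2 and 77.9 FPKM in knockouts and between 33.0 and 230.4 FPKM in controls, with none called. Sums of the interstitial macrophage and monocyte markers overlapped between the groups, at 9.46 to 12.7 FPKM in knockouts and 11.1 to 15.5 FPKM in controls, but single markers went opposite ways. The complement gene C1qb rose, with 1.94 ± 0.419 FPKM in knockouts and 0.483 ± 0.292 FPKM in controls (SD, n = 3 each), and the monocyte receptor gene Ccr2 fell, with 0.847 ± 0.162 FPKM in knockouts and 2.36 ± 0.275 FPKM in controls (SD, n = 3 each), as did Plac8 and, as deposited only, Lyve1. Dendritic cell marker sums also overlapped, at 4.47 to 7.93 FPKM in knockouts and 4.66 to 13.3 FPKM in controls. Here too single markers went opposite ways. Clec9a rose (log2 change 1.09; 1.36 after TMM) and Ccr7 fell (log2 change -1.43; -1.16 after TMM). The other 5 stayed under 1 FPKM in every library and were not tested. Among them Flt3, Xcr1 and Cd209a were lower in knockouts without overlap, while Zbtb46 and Siglech overlapped. Neutrophil markers summed to 38.7 to 58.2 FPKM in knockouts and 68.4 to 88.0 FPKM in controls, where Csf3r alone of the 5 tested fell, with 4.77 ± 0.911 FPKM in knockouts and 34.9 ± 13.7 FPKM in controls (SD, n = 3 each). S100a8, a defining neutrophil marker, averaged 12.6 ± 4.29 FPKM in knockouts and 12.6 ± 1.76 FPKM in controls (SD, n = 3 each), and it, S100a9, Retnlg and Mmp8 were not called. Endothelium and fibroblast markers summed to 5.69 to 11.9 FPKM in knockouts and 18.4 to 43.6 FPKM in controls. No listed marker was at 0 in all 6 libraries. The part of such cells in the results below was not tested.

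NRF2 is a transcription factor that its adaptor KEAP1 holds back for degradation and that oxidants and electrophiles release. Paired with a small MAF protein, it binds antioxidant response elements beside genes for glutathione synthesis, thioredoxin reductase, peroxiredoxins and detoxifying enzymes, while BACH1, which also pairs with small MAF proteins, represses part of the same genes. Glutathione and thioredoxin are the thiol systems that hand electrons from NADPH to peroxidases and reductases, and glutathione itself is used by transferases. Alveolar macrophages meet inhaled oxygen, particles and surfactant lipid, and these systems keep their peroxides in check.

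Promoter sequences were read from RefSeq (GRCm38.p6) for 34 of the 38 genes, covering 250 bases before to 50 bases after a transcript start. The 4 shown belong to 2 genes that rose and hold both motifs searched (Prdx1 and Srxn1), to the gene with the largest rise (Glrx) and to a gene that fell as deposited (Mgst1). Capitals mark the antioxidant response element core TGACNNNGC, on either strand, and the AP-1 type word TGANTCA, which reads the same on both strands and overlaps the core where the core begins TGACTCA.
Prdx1, chr4:116685349-116685648, plus strand: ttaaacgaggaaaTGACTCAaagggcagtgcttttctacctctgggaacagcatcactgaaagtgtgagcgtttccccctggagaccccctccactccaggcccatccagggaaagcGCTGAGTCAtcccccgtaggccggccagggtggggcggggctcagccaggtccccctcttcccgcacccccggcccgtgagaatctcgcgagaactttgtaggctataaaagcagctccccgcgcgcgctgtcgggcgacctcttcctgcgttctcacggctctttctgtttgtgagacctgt
Srxn1, chr2:152105274-152105573, plus strand: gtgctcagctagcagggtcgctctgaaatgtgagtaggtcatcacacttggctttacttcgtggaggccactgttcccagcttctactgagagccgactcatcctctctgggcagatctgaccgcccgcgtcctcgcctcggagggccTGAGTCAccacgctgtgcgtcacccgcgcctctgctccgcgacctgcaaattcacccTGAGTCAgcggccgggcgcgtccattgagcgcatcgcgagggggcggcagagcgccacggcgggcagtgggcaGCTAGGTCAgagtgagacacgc
Glrx, chr13:75839635-75839934, plus strand: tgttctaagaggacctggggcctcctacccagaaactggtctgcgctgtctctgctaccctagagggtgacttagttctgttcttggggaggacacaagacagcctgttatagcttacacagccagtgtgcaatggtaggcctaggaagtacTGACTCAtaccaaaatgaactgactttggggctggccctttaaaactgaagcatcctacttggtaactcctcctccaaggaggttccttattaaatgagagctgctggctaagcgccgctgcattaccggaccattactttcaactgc
Mgst1, chr6:138140277-138140576, plus strand: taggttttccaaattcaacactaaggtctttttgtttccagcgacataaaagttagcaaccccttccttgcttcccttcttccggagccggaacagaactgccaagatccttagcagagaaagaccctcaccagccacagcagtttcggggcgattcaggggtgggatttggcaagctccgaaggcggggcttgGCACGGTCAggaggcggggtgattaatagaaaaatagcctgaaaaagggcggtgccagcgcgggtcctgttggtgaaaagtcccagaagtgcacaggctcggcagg
In Prdx1 the core match TGACTCAGC on the minus strand overlaps an AP-1 type word, with their first bases 133 and 131 bases before the transcript start, and another AP-1 type word lies 237 bases before it. The Srxn1 window holds AP-1 type words 102 and 45 bases before its start and a core match after it. The Glrx window holds 1 AP-1 type word and no core match. Mgst1, which fell as deposited, holds a core match 56 bases before its start. Over all 32851 promoters of this length, 12.4% held the core and 7.81% held the AP-1 type word, against 21.4% and 14.3% of the 42 promoters of the 34 genes.

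Antioxidant genes changed in both directions in knockout macrophages, with large rises in a few and falls in others. The largest rises were in the glutaredoxin gene Glrx, the peroxiredoxin gene Prdx1 and the cystine importer gene Slc7a11, between 3.01-fold and 3.77-fold in mean FPKM. The largest falls were in the membrane transferase gene Mgst3 and the transferase gene Gsto1, whose knockout means were 0.309 and 0.485 of the control means. The NRF2 gene itself did not pass the test. As bulk samples, these libraries cannot tell apart fewer cells of a type and less RNA per cell.

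Of the 38 genes, 36 averaged at least 1 FPKM and were tested, on log2(FPKM + 1), and Nqo1 and Sod3 did not reach that level. As deposited, 13 rose and 15 fell at a limma adjusted p under 0.05, while 11.0% of all 10847 tested genes rose, 58.8% fell and 69.8% did either. After TMM scaling 19 rose and 6 fell, where 31.7% of all 10816 tested genes rose, 24.8% fell and 56.4% did either. The list was drawn up with earlier results of these data known, so its counts beside those shares are description only. The same 13 genes rose under both scalings and 6 fell under both, against 11.1% and 24.8% of the genes tested in both. TMM scaling divides knockout libraries by 0.868 to 0.876 and control libraries by 1.14 to 1.16, which moves the log2 changes of all genes upward, so the rises called as deposited became larger by construction. The median log2 change of the 36 genes was 0.00 as deposited and 0.37 after TMM, and that of all tested genes was -0.31 and 0.04. FPKM of the groups did not overlap as deposited for 31 of the 36 genes, against 74.5% of all tested genes. Means below are given with the SD over the 3 libraries of a group.

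**Figure D1:**
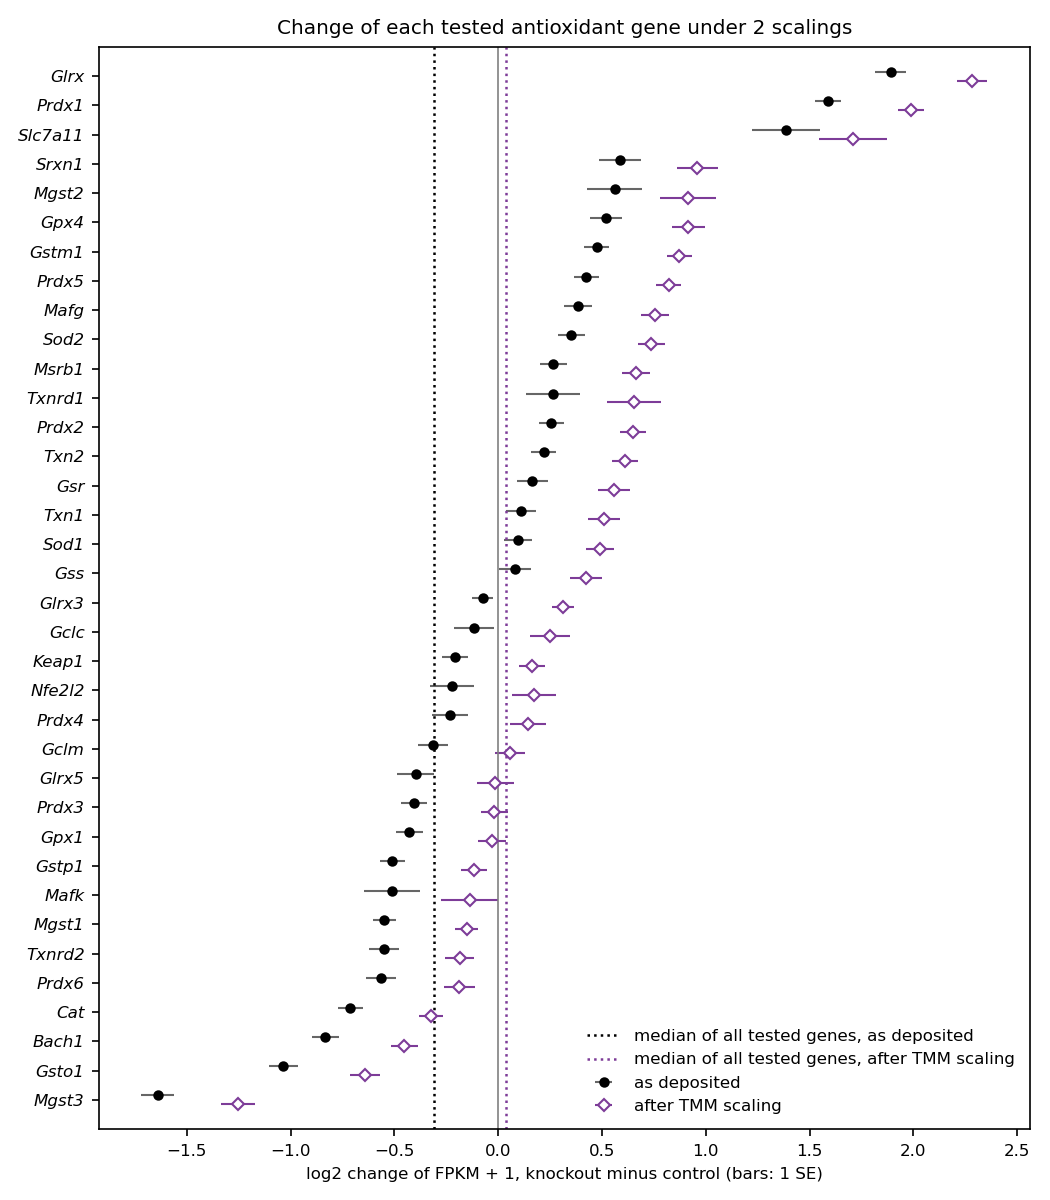
Log2 change of FPKM + 1 (knockout minus control, bars 1 SE) for the 36 tested genes, filled circles as deposited and open diamonds after TMM scaling, with dotted lines at the median of all tested genes (-0.31 and 0.04). Glrx, Prdx1 and Slc7a11 stand apart at the top and Mgst3 and Gsto1 at the bottom.

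**Figure D2:**
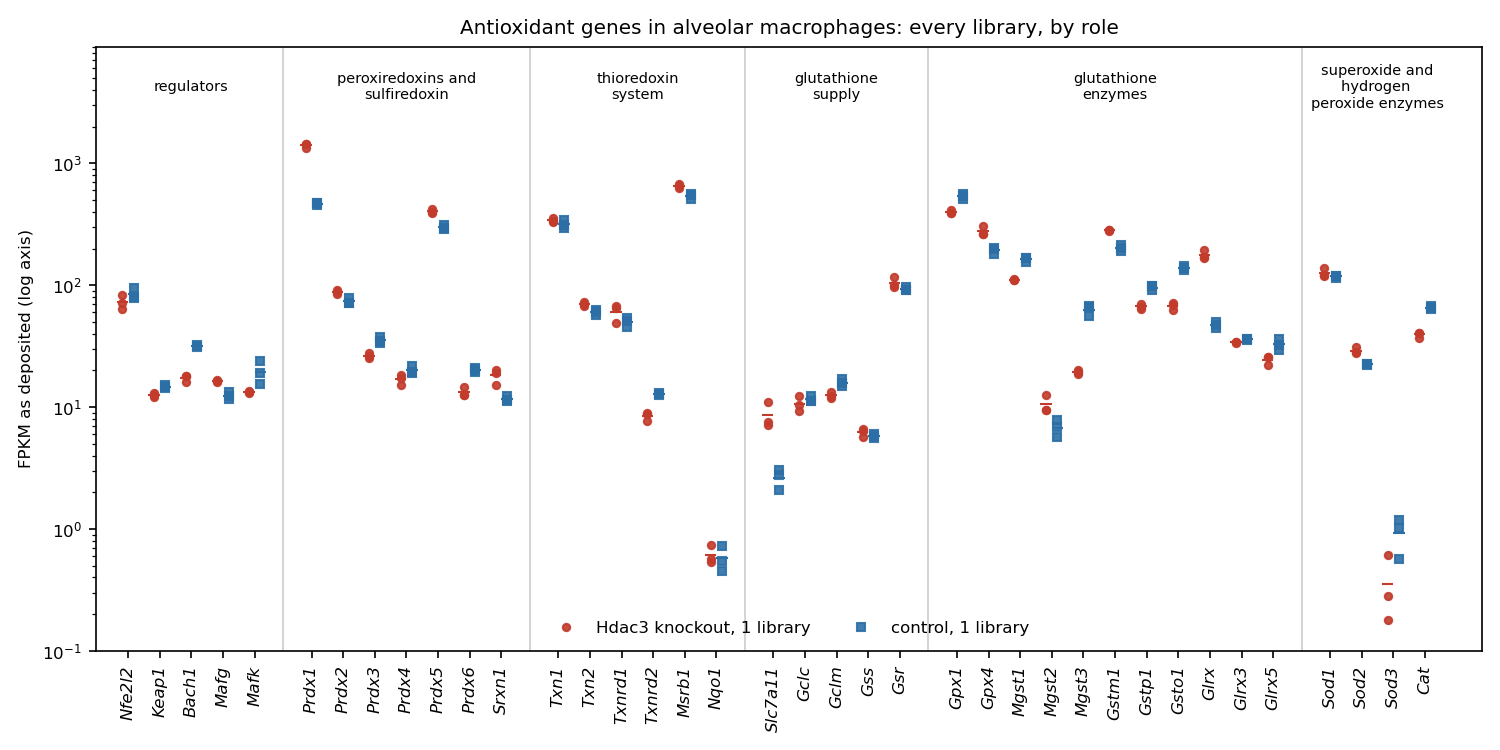
FPKM on a log axis of each gene in every library, knockout libraries as circles left of control libraries as squares, with lines at the group means. Levels run from 0.18 FPKM for Sod3 to 1451 FPKM for Prdx1, both in knockout libraries.

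Among the regulators, the repressor gene Bach1 fell and the small MAF gene Mafg rose under both scalings, while Nfe2l2 was not called under either. Nfe2l2 had 70.8, 64.2 and 82.5 FPKM in the knockout libraries, against 79.3, 79.1 and 95.5 FPKM in the control libraries. The groups overlapped, and the log2 change was -0.22 as deposited and 0.17 after TMM (limma adjusted p = 0.093 as deposited and 0.2 after TMM; 0.014 to 0.63 over all settings run, those after TMM included). Without knockout replicate 3, whose level was the highest of its group, Nfe2l2 fell as deposited (log2 change -0.32, adjusted p = 0.024). Bach1 had 18, 15.9 and 18.1 FPKM in the knockout libraries, against 31.5, 31.1 and 32.2 FPKM in the control libraries. Every knockout library lay below every control library, at 0.548 of the control mean (log2 change -0.83, SE 0.06, limma adjusted p = 7.3e-06; -0.45 after TMM). Keap1, the adaptor that directs NRF2 to degradation, had 12, 13 and 12.7 FPKM in the knockout libraries, against 14.3, 15.2 and 14.6 FPKM in the control libraries. It fell as deposited without overlap, by less than most genes, and was not called after TMM scaling, where its sign turned (log2 change -0.21, SE 0.06, limma adjusted p = 0.014; 0.16 after TMM). The deposited call of Keap1 was lost without knockout replicate 1 (adjusted p = 0.052) and without control replicate 2 (0.057).

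The small MAF genes moved apart. Mafg had 16.5, 16 and 16.8 FPKM in the knockout libraries, against 12.2, 11.6 and 13.3 FPKM in the control libraries. It was higher in every knockout library (log2 change 0.38, SE 0.07, limma adjusted p = 8.1e-04; 0.76 after TMM). Mafk, another small MAF partner, had 13, 13.5 and 13.2 FPKM in the knockout libraries, against 24, 19.1 and 15.6 FPKM in the control libraries. The control libraries spread widely, from 15.6 to 24.0 FPKM, and the fall as deposited was not called after TMM scaling (log2 change -0.51, SE 0.14, limma adjusted p = 0.01; -0.14 after TMM). Without control replicate 3, the lowest of the controls, Mafk fell after TMM also (log2 change -0.29, adjusted p = 0.028).

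Peroxiredoxins reduce hydrogen peroxide and organic peroxides through a reactive cysteine, and all 7 genes of this group, sulfiredoxin included, differed as deposited without overlap: 4 rose under both scalings and 3 fell as deposited only. Of all tested genes, 74.5% did not overlap and 69.8% were called as deposited. Prdx1, a cytosolic peroxiredoxin served by thioredoxin, had 1451, 1429 and 1338 FPKM in the knockout libraries, against 452, 472 and 475 FPKM in the control libraries. It was the highest of the 38 genes in knockouts and the third highest in controls, and rose 3.01-fold (log2 change 1.59, SE 0.06, limma adjusted p = 1.6e-07; 1.99 after TMM). It made up 27.9% ± 1.02 of the summed FPKM of the 38 genes in knockouts and 11.9% ± 0.405 in controls (SD, n = 3 each). Prdx5, which acts in mitochondria, peroxisomes and cytosol, had 392, 418 and 397 FPKM in the knockout libraries, against 289.8, 297 and 313 FPKM in the control libraries. The increase was 1.34-fold without overlap (log2 change 0.42, SE 0.06, limma adjusted p = 2.4e-04; 0.82 after TMM). Exons annotated to Trmt112 on the opposite strand overlap those of Prdx5, and strand handling is not given in the sources used here, so reads of the pair may be shared.

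Prdx2, the cytosolic relative abundant in red cells, had 84.3, 91.2 and 88.7 FPKM in the knockout libraries, against 71.5, 77.9 and 71.5 FPKM in the control libraries. All knockout libraries were above all controls, by 1.2-fold on average (log2 change 0.26, SE 0.06, limma adjusted p = 0.0047; 0.65 after TMM). The summed erythroid markers overlapped between the groups. Each of them averaged lower in knockouts (Hba-a1 16.3 ± 15.4 FPKM, against 72.3 ± 47.4 FPKM in controls), none was called, and their part in the Prdx2 values was not tested. Srxn1 encodes sulfiredoxin, which repairs peroxiredoxins whose cysteine has been overoxidized, and had 19.2, 20.2 and 15.2 FPKM in the knockout libraries, against 11.2, 11.5 and 12.4 FPKM in the control libraries. All knockout libraries were above all controls, knockout replicate 3 least so (log2 change 0.59, SE 0.10, limma adjusted p = 7.7e-04; 0.96 after TMM). Prdx3, the mitochondrial peroxiredoxin, averaged 26.4 ± 1.36 FPKM in knockouts and 35.3 ± 1.87 FPKM in controls. Prdx4, the peroxiredoxin of the endoplasmic reticulum, averaged 17 ± 1.69 FPKM in knockouts and 20.1 ± 1.52 FPKM in controls. For Prdx6, a peroxiredoxin with phospholipase activity that epithelial type II cells hold in abundance, the means were 13.3 ± 1.18 FPKM in knockouts and 20.2 ± 0.624 FPKM in controls. These 3 fell as deposited (limma adjusted p = 4.6e-04 for Prdx3, 0.035 for Prdx4 and 1.3e-04 for Prdx6) but were not called after TMM scaling, where Prdx4 changed sign (log2 changes -0.02, 0.14 and -0.19 in that order). Without knockout replicate 3, Prdx6 fell after TMM also (log2 change -0.27, adjusted p = 0.0087). The deposited call of Prdx4 was lost without knockout replicate 1 (adjusted p = 0.13), without knockout replicate 3 (0.055) and without control replicate 2 (0.13). Surfactant gene Sftpc, a type II cell marker, moved the same way as Prdx6, at 18.3 ± 6.98 FPKM in knockouts and 63 ± 23.2 FPKM in controls (SD, n = 3 each), and its part in the Prdx6 values was not tested.

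The thioredoxin genes changed by less than Prdx1: as deposited Txn2 and Msrb1 rose, Txnrd2 fell, and Txn1 and Txnrd1 were not called. Txn1, the cytosolic thioredoxin that recharges Prdx1, had 328, 339 and 356 FPKM in the knockout libraries, against 313, 343 and 292 FPKM in the control libraries. The groups overlapped as deposited and the gene was not called (limma adjusted p = 0.19 as deposited), but it rose after TMM scaling (log2 change 0.11 as deposited and 0.51 after TMM). Txnrd1, the cytosolic reductase that passes electrons from NADPH to thioredoxin, had 65.1, 67.9 and 48.8 FPKM in the knockout libraries, against 53.4, 51.1 and 45.2 FPKM in the control libraries. Knockout replicate 3 lay among the controls, and the gene was not called as deposited (limma adjusted p = 0.1 as deposited), was called without that library (log2 change 0.41, adjusted p = 0.0035; range over all settings run, those after TMM included, 2.0e-04 to 0.27), and rose after TMM scaling (log2 change 0.26 as deposited and 0.66 after TMM).

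The mitochondrial pair moved apart. Txn2, the mitochondrial thioredoxin, had 67.7, 73.5 and 69.9 FPKM in the knockout libraries, against 63, 60.5 and 57.4 FPKM in the control libraries. It rose 1.17-fold, with no overlap (log2 change 0.22, SE 0.06, limma adjusted p = 0.0096; 0.61 after TMM). Txnrd2, its reductase, had 8.76, 8.9 and 7.74 FPKM in the knockout libraries, against 12.9, 12.5 and 13.1 FPKM in the control libraries. It fell under both scalings (log2 change -0.55, SE 0.07, limma adjusted p = 1.3e-04; -0.19 after TMM), but after TMM the adjusted p was 0.046, and leaving out knockout replicate 1, knockout replicate 3 or any 1 of the 3 control libraries there gave values from 0.051 to 0.12. Msrb1, a methionine sulfoxide reductase that thioredoxin recharges, was the highest of the 38 genes in controls, where Gpx1 came within the spread of it, and had 648, 624 and 678 FPKM in the knockout libraries, against 549.6, 558 and 513 FPKM in the control libraries. The groups did not overlap, and the rise was 1.2-fold (log2 change 0.27, SE 0.06, limma adjusted p = 0.005; 0.66 after TMM). The quinone reductase gene Nqo1, a common readout of NRF2 activity, stayed under 1 FPKM, with 0.57, 0.74 and 0.54 FPKM in the knockout libraries, against 0.45, 0.55 and 0.72 FPKM in the control libraries, and was not tested.

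In glutathione supply, the importer light chain gene Slc7a11 rose, while as deposited none of the synthesis enzymes did. Slc7a11, the light chain of the antiporter that brings in cystine for glutathione, had 11, 7.6 and 7.15 FPKM in the knockout libraries, against 3.03, 2.1 and 2.76 FPKM in the control libraries. The levels were low in both groups, every knockout library was above every control, and knockout replicate 1 was the highest (log2 change 1.39, SE 0.16, limma adjusted p = 1.6e-04; 1.71 after TMM). In mean FPKM the rise was 3.27-fold, and with a pseudocount of 5 the log2 change was 0.82. The heavy chain gene Slc3a2, picked after its values were seen, averaged 77.2 ± 3.11 FPKM in knockouts and 113 ± 13.1 FPKM in controls. Slc3a2 fell as deposited and was not called after TMM (log2 change -0.54, SE 0.08, limma adjusted p = 3.6e-04; -0.15 after TMM). Gclc, the catalytic subunit of the enzyme that limits glutathione synthesis, averaged 10.7 ± 1.53 FPKM in knockouts and 11.6 ± 0.672 FPKM in controls and was not called under either scaling, with opposite signs (log2 change -0.12 as deposited and 0.25 after TMM; limma adjusted p = 0.31 as deposited and 0.051 after TMM). Without knockout replicate 2 it fell as deposited (log2 change -0.22, adjusted p = 0.049), and without knockout replicate 3 it rose after TMM (log2 change 0.32, adjusted p = 0.020). Gclm, its modifier subunit, averaged 12.6 ± 0.702 FPKM in knockouts and 15.9 ± 1.12 FPKM in controls. It fell as deposited (limma adjusted p = 0.004 as deposited) and was not called after TMM scaling, where its sign turned (log2 change -0.31 as deposited and 0.06 after TMM).

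Gss, glutathione synthetase, averaged 6.2 ± 0.465 FPKM in knockouts and 5.8 ± 0.221 FPKM in controls, the lowest knockout level among the tested genes. Gsr, the reductase that regenerates glutathione with NADPH, averaged 105 ± 10.4 FPKM in knockouts and 92.8 ± 2.82 FPKM in controls. Neither was called as deposited (limma adjusted p = 0.36 for Gss and 0.077 for Gsr), and both rose after TMM scaling (log2 changes 0.42 and 0.56). Without knockout replicate 3 Gsr rose as deposited also (log2 change 0.22, adjusted p = 0.036).

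Enzymes that use glutathione went furthest in both directions. Under both scalings 4 of the 11 rose (Glrx, Gpx4, Gstm1 and Mgst2) and 3 fell (Mgst3, Gsto1 and Mgst1). Of all genes tested in both, 11.1% rose and 24.8% fell under both scalings. Glrx, the cytosolic glutaredoxin that removes glutathione from protein cysteines, had 169, 194 and 168 FPKM in the knockout libraries, against 44.4, 46.7 and 49.6 FPKM in the control libraries. Its 3.77-fold rise was the largest log2 change of the 36 tested genes, and by level it ranked 8 of 38 in knockouts and 19 of 38 in controls (log2 change 1.89, SE 0.07, limma adjusted p = 1.6e-07; 2.28 after TMM). Glrx3, which handles iron-sulfur clusters in the cytosol, averaged 34 ± 0.57 FPKM in knockouts and 35.9 ± 0.373 FPKM in controls, was not called as deposited (limma adjusted p = 0.22 as deposited) and rose after TMM scaling with its sign turned (log2 change -0.07 as deposited and 0.31 after TMM). The mitochondrial iron-sulfur glutaredoxin gene Glrx5 averaged 24.6 ± 1.94 FPKM in knockouts and 32.7 ± 3.49 FPKM in controls. Glrx5 fell as deposited and was not called after TMM scaling (log2 change -0.40, SE 0.09, limma adjusted p = 0.0032; -0.01 after TMM).

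The 2 glutathione peroxidase genes moved in opposite directions as deposited. Gpx4, which reduces lipid hydroperoxides inside membranes, had 262, 305 and 264 FPKM in the knockout libraries, against 198, 201 and 179 FPKM in the control libraries. All knockout libraries were above the controls (log2 change 0.52, SE 0.08, limma adjusted p = 3.4e-04; 0.92 after TMM). Gpx1, the abundant cytosolic peroxidase, had 394, 392 and 417 FPKM in the knockout libraries, against 564, 544 and 512 FPKM in the control libraries. It fell without overlap as deposited and was not called after TMM scaling (log2 change -0.43, SE 0.06, limma adjusted p = 3.0e-04; -0.03 after TMM). A processed pseudogene, Gpx4-ps2, aligns with 73.7% of the Gpx4 transcript at 99.7% identity, so reads of the pair may be shared. The same holds for other genes described here. Prdx1 aligns with the pseudogene Gm21399 at 98.3% identity over 597 bases. Glrx3 aligns with the pseudogene Gm12669, itself a listed gene, at 99.1% over 964 bases. Slc7a11 aligns with the listed gene Tuba1b at 96.2% over 373 bases, 4.0% of its transcript. Prdx2, Txn1, Mgst3 and Sod2 had near copies too.

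The microsomal transferases, membrane enzymes of which some also reduce lipid peroxides, split. Mgst3 had 18.8, 19.4 and 20.2 FPKM in the knockout libraries, against 67, 66.2 and 55.8 FPKM in the control libraries. Its knockout level was 0.309 of the control level, the largest fall among the tested genes (log2 change -1.64, SE 0.08, limma adjusted p = 4.7e-07; -1.25 after TMM). Mgst1 had 113, 110.4 and 110.1 FPKM in the knockout libraries, against 155, 167 and 166 FPKM in the control libraries. It fell without overlap as deposited (log2 change -0.55, SE 0.06, limma adjusted p = 3.3e-05; -0.15 after TMM), while the TMM call, at an adjusted p of 0.047, was lost without any 1 of the 6 libraries (0.052 to 0.16). Mgst2, which can also make leukotriene C4, had 9.53, 12.6 and 9.38 FPKM in the knockout libraries, against 6.86, 7.8 and 5.7 FPKM in the control libraries. At low levels it rose in all knockout libraries (log2 change 0.56, SE 0.13, limma adjusted p = 0.0056; 0.92 after TMM).

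Soluble transferases split as well. Gstm1, a mu-class transferase, had 282, 279.6 and 282 FPKM in the knockout libraries, against 191, 203 and 213 FPKM in the control libraries. The knockout libraries were within 3 FPKM of each other and all above the controls (log2 change 0.48, SE 0.06, limma adjusted p = 1.2e-04; 0.87 after TMM). Gsto1, an omega-class enzyme with thioltransferase activity close to that of glutaredoxin, had 62, 68.6 and 71.9 FPKM in the knockout libraries, against 139, 145 and 133 FPKM in the control libraries. It fell to 0.485 of the control level, without overlap (log2 change -1.03, SE 0.07, limma adjusted p = 3.0e-06; -0.64 after TMM). Gstp1, the pi-class transferase, averaged 66.9 ± 3.26 FPKM in knockouts and 95.7 ± 3.81 FPKM in controls. It fell as deposited and not after TMM scaling (log2 change -0.51, SE 0.06, limma adjusted p = 8.0e-05; -0.12 after TMM), and it shares a stretch of 361 bases at 100% identity with the listed gene Gstp2, which makes the split of their reads uncertain. Gstm1 likewise aligns with the pseudogene Gstm2-ps1 at 97.9% identity over 657 bases, and with the gene Gstm2 at 87.2% over 603 bases. Gstm2 averaged 0.28 ± 0.164 FPKM in knockouts and 0.88 ± 0.217 FPKM in controls.

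Of the enzymes of superoxide and hydrogen peroxide, catalase fell and mitochondrial superoxide dismutase rose under both scalings. Cat, the peroxisomal catalase, had 40.7, 40.7 and 37 FPKM in the knockout libraries, against 64, 64.6 and 67.1 FPKM in the control libraries. Its knockout level was 0.605 of the control level, with no overlap (log2 change -0.71, SE 0.06, limma adjusted p = 1.1e-05; -0.32 after TMM). Sod2, the mitochondrial dismutase, had 28.5, 27.5 and 31.3 FPKM in the knockout libraries, against 22.1, 22.7 and 22.8 FPKM in the control libraries. All knockout libraries were above all controls, by 1.29-fold on average (log2 change 0.35, SE 0.06, limma adjusted p = 9.3e-04; 0.74 after TMM). The cytosolic Sod1 averaged 126 ± 10.5 FPKM in knockouts and 118 ± 2.76 FPKM in controls, was not called as deposited (limma adjusted p = 0.23 as deposited) and rose after TMM scaling (log2 change 0.10 as deposited and 0.49 after TMM). Sod3, the secreted dismutase, was near the lower limit, with 0.28, 0.18 and 0.61 FPKM in the knockout libraries, against 1.18, 1.02 and 0.57 FPKM in the control libraries, the groups overlapped and it was not tested.

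Summed by role, the peroxiredoxin group differed most between knockouts and controls. Its summed level was 1972 ± 65.9 FPKM in knockouts and 927 ± 24.9 FPKM in controls, or 0.396% ± 0.0181 of the library in knockouts and 0.200% ± 0.00534 in controls (SD, n = 3 each). Without Prdx1 the other 6 genes of the group summed to 566 ± 20.6 FPKM in knockouts and 461 ± 12.7 FPKM in controls. The enzymes that use glutathione summed to 1471 ± 39.0 FPKM in knockouts and 1518 ± 42.0 FPKM in controls, with 1 knockout library inside the control range. The thioredoxin group summed to 1131 ± 26.1 FPKM in knockouts and 979.9 ± 53.2 FPKM in controls. The regulators summed to 132 ± 10.4 FPKM in knockouts and 163 ± 7.70 FPKM in controls. Sums for glutathione supply overlapped through knockout replicate 3, at 131 to 156 FPKM in knockouts and 126 to 134 FPKM in controls. Sums of the superoxide and hydrogen peroxide enzymes overlapped, at 189 to 207 FPKM in knockouts and 202 to 209.8 FPKM in controls. These sums were chosen by role and are given with no test.

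**Figure D3:**
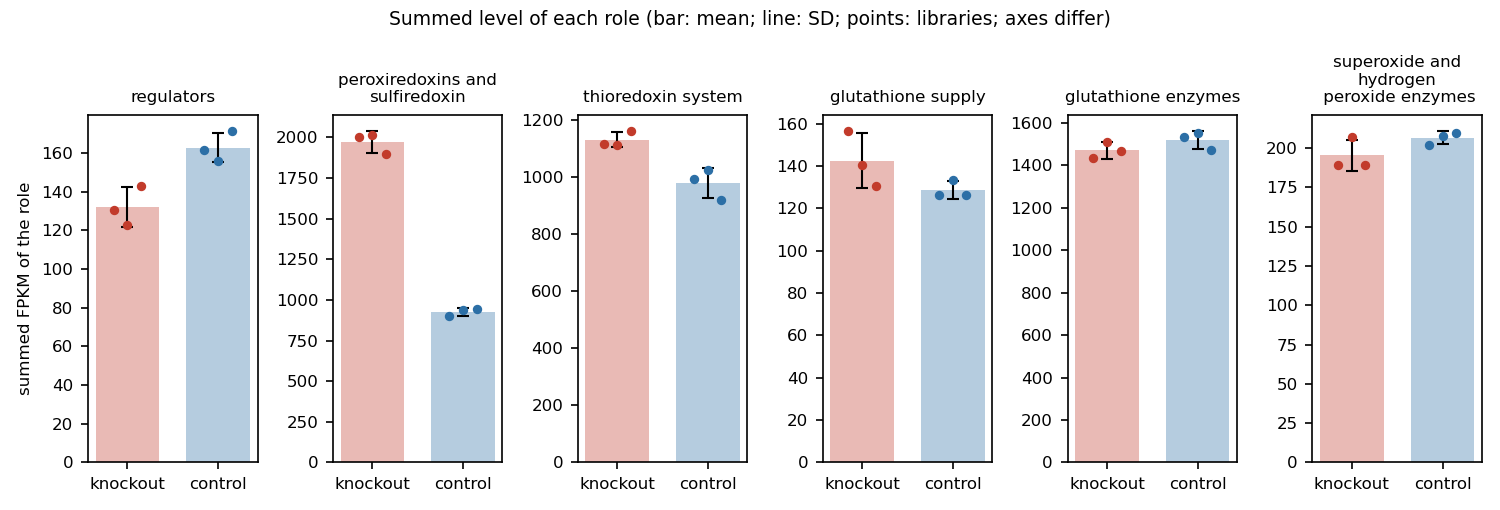
Summed FPKM of each role, knockout bars left of control bars, with bars at the mean, lines for the SD and points for the 3 libraries; each panel has its own axis from 0. The peroxiredoxin panel shows knockouts near 1972 FPKM and controls near 927 FPKM.

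Ratios between genes of the same library do not depend on how libraries are scaled. The pairs were chosen after their values were seen and are given with no test, with mean ± SD over 3 libraries per group. Prdx1 over Prdx2 was 16 ± 1.11 in knockouts and 6.34 ± 0.287 in controls. Glrx over Gsto1 was 2.63 ± 0.262 in knockouts and 0.338 ± 0.0293 in controls, so that Glrx was the higher of the pair in knockouts and Gsto1 in controls. Slc7a11 over Gclc was 0.815 ± 0.229 in knockouts and 0.229 ± 0.0527 in controls. The membrane pair Mgst1 over Mgst3 stood at 5.71 ± 0.285 in knockouts and 2.61 ± 0.338 in controls, and the peroxidases Gpx4 over Gpx1 at 0.692 ± 0.0754 in knockouts and 0.357 ± 0.0118 in controls. For the reductases, Txnrd1 over Txnrd2 was 7.12 ± 0.716 in knockouts and 3.89 ± 0.384 in controls. The activator and repressor genes, Nfe2l2 over Bach1, had a ratio of 4.18 ± 0.341 in knockouts and 2.67 ± 0.25 in controls, without overlap. Nfe2l2 over Keap1, by contrast, was 5.78 ± 0.796 in knockouts and 5.77 ± 0.689 in controls, and the groups overlapped. The ratio of Mafg to Mafk was 1.24 ± 0.050 in knockouts and 0.656 ± 0.176 in controls. Txn1 over Txnrd1 was 5.78 ± 1.31 in knockouts and 6.34 ± 0.428 in controls and overlapped between the groups, and Gclc over Gclm was 0.847 ± 0.0734 in knockouts and 0.731 ± 0.0178 in controls.

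**Figure D4:**
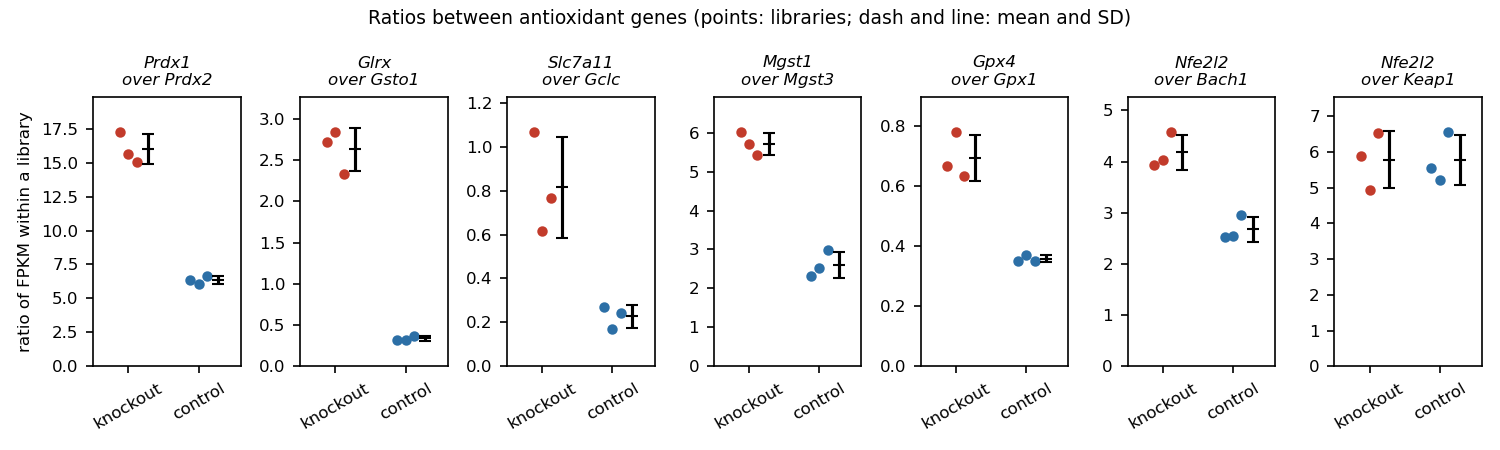
FPKM ratio of 7 gene pairs within each library, knockout points left of control points, with mean and SD beside them; each axis starts at 0. Knockouts and controls overlap in the panel of Nfe2l2 over Keap1 and are apart in the other 6.

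Of 6 genes whose proteins work in mitochondria (Prdx3, Prdx5, Txn2, Txnrd2, Sod2 and Glrx5), 3 rose and 3 fell as deposited, and 3 rose and 1 fell after TMM scaling. Of 5 selenoprotein genes (Gpx1, Gpx4, Txnrd1, Txnrd2 and Msrb1), which need selenocysteine at a UGA codon, 2 rose and 2 fell as deposited, and 3 rose and 1 fell after TMM. Both groupings were made after the values were seen, and of all tested genes 11.0% rose and 58.8% fell as deposited, and 31.7% rose and 24.8% fell after TMM. Of 9 genes with the core TGACNNNGC in a promoter searched, Prdx1, Srxn1 and Mafg rose, Gclm, Mafk and Mgst1 fell, and Nfe2l2, Sod1 and Txnrd1 were not called as deposited, while 5 rose and 1 fell after TMM. The AP-1 type word was found in 5 genes, of which Glrx, Prdx1, Srxn1 and Mgst2 rose and Gstp1 fell as deposited, and 4 rose and none fell after TMM. These are matches of letters in a short window and not sites of binding.

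Libraries of a group lay close for most of the 36 genes, with a median coefficient of variation of 6.12% in knockouts and 4.94% in controls. The widest were Slc7a11 in knockouts (24.7%) and Mafk in controls (21.7%). Knockout replicate 3 was the lowest of its group for 15 of the 36 genes, among them Slc7a11, Gclc, Gclm, Gss, Gsr, Txnrd1, Srxn1, Prdx1 and Glrx, and the highest for 10, Nfe2l2 among them. Knockout replicate 2 was the highest of its group for 20 genes and the lowest for 9.

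Other genes of these pathways, 180 names in 8 lists that hold none of the 38, were described in the same fit, and 137 were tested. As deposited 27 rose and 72 fell, beside 11.0% and 58.8% of all tested genes, and after TMM scaling 60 rose and 31 fell, beside 31.7% and 24.8%. The median log2 change of these genes was -0.26 as deposited and 0.12 after TMM. Up to 4 genes per list are named below by rule, the 2 with the largest rises and the 2 with the largest falls among those called in the same direction under both scalings. Hmox1, Slc40a1 and Cybb are named outside it, as was Slc3a2 above.

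Of 15 further regulators, 2 rose and 10 fell as deposited and 5 rose and 4 fell after TMM. Sqstm1, whose product p62 draws KEAP1 away from NRF2, averaged 371 ± 15.5 FPKM in knockouts and 244 ± 8.16 FPKM in controls (log2 change 0.60; 1.0 after TMM). Nfe2, a relative of NRF2, averaged 12.8 ± 1.45 FPKM in knockouts and 7.12 ± 0.305 FPKM in controls (log2 change 0.76; 1.12 after TMM). Both rose, while Maff, the remaining small MAF gene, fell, with 18.5 ± 2.66 FPKM in knockouts and 50.5 ± 8.43 FPKM in controls (log2 change -1.40; -1.01 after TMM). Crebbp, a histone acetyltransferase that serves as coactivator, also fell, with 4.15 ± 0.131 FPKM in knockouts and 8.75 ± 1.41 FPKM in controls (log2 change -0.91; -0.57 after TMM).

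Among 20 tested NRF2 targets of quinone, heme, iron and drug metabolism, 7 rose and 11 fell as deposited and 9 rose and 5 fell after TMM. Akr1b8, an aldo-keto reductase, averaged 19.3 ± 1.23 FPKM in knockouts and 2.33 ± 0.815 FPKM in controls (log2 change 2.63; 2.96 after TMM). Its rise was larger than that of any of the 38 genes. Fth1, the heavy chain of the iron store ferritin, also rose, and the carbonyl reductase gene Cbr3 and the epoxide hydrolase gene Ephx1 fell, with 2.41 ± 0.236 FPKM in knockouts and 6.31 ± 1.22 FPKM in controls for Cbr3 (log2 change -1.09; -0.78 after TMM). Hmox1, heme oxygenase, was singled out after its values were seen, as a gene that BACH1 represses. It had 218, 249.99 and 218 FPKM in the knockout libraries, against 103, 128 and 105 FPKM in the control libraries. It rose without overlap (log2 change 1.03, SE 0.09, limma adjusted p = 1.8e-05; 1.43 after TMM). Slc40a1 of the same list, also picked after its values were seen, fell (log2 change -0.85 as deposited and -0.63 after TMM). It averaged 0.837 ± 0.284 FPKM in knockouts and 2.30 ± 0.271 FPKM in controls. The part of BACH1 in these levels was not tested.

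For NADPH supply, 2 of 16 tested genes rose and 8 fell as deposited, and 7 rose and 3 fell after TMM. Pgd, a dehydrogenase of the pentose phosphate pathway, averaged 239 ± 13.4 FPKM in knockouts and 162 ± 15.5 FPKM in controls (log2 change 0.56; 0.95 after TMM), and Rpe, an epimerase of that pathway, averaged 18 ± 1.23 FPKM in knockouts and 13.4 ± 0.771 FPKM in controls (log2 change 0.40; 0.77 after TMM). Both rose. Aldh1l1, a folate enzyme that makes NADPH, and Nadk2, the mitochondrial NAD kinase, fell (log2 change -0.81; -0.54 after TMM for Aldh1l1, and -0.67 and -0.36 for Nadk2). In cystine and glutathione turnover, 2 of 15 rose and 8 fell as deposited, and 6 rose and 5 fell after TMM. The dipeptidase gene Cndp2 and the mitochondrial glutathione carrier gene Slc25a39 rose, with 269.96 ± 2.3 FPKM in knockouts and 211 ± 3.15 FPKM in controls for Cndp2. Dpep2, another dipeptidase gene, fell, with 42.7 ± 2.79 FPKM in knockouts and 87.6 ± 4.81 FPKM in controls (log2 change -1.02; -0.63 after TMM), as did the amino acid carrier gene Slc1a5 (log2 change -0.81; -0.43 after TMM).

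Of 13 further glutathione transferases and peroxidases tested, 3 rose and 6 fell as deposited and 3 rose and 4 fell after TMM. The mu-class genes Gstm4 and Gstm5 rose along with Gstm1, Gstm4 with 23.5 ± 1.57 FPKM in knockouts and 10.7 ± 0.996 FPKM in controls (log2 change 1.07; 1.44 after TMM) and Gstm5 with 7.29 ± 0.499 FPKM in knockouts and 3.81 ± 0.17 FPKM in controls (log2 change 0.78; 1.11 after TMM). The prostaglandin synthase genes Hpgds and Ptges fell, Hpgds with 0.48 ± 0.131 FPKM in knockouts and 4.77 ± 0.923 FPKM in controls (log2 change -1.95; -1.73 after TMM). Among 33 tested genes of thioredoxin fold, methionine sulfoxide reduction and selenium, 5 rose and 17 fell as deposited and 16 rose and 6 fell after TMM. Msra, the partner of Msrb1 for the other stereoisomer of methionine sulfoxide, rose, with 68.5 ± 3.87 FPKM in knockouts and 22.4 ± 2.03 FPKM in controls (log2 change 1.57, SE 0.08, limma adjusted p = 5.5e-07; 1.96 after TMM). Nxn, nucleoredoxin, rose, with 3.83 ± 0.195 FPKM in knockouts and 0.913 ± 0.12 FPKM in controls (log2 change 1.34; 1.59 after TMM). Selenop, the secreted selenium carrier, fell, with 55.7 ± 10.2 FPKM in knockouts and 297 ± 15.9 FPKM in controls (log2 change -2.41, SE 0.13, limma adjusted p = 3.9e-06; -2.02 after TMM), and Sesn1, a sestrin, fell too (log2 change -1.18; -0.90 after TMM).

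Of 11 tested genes of oxidant sources, 3 rose and 5 fell as deposited and 7 rose and 1 fell after TMM. Rac2, the GTPase that switches on the phagocyte oxidase, rose, with 117 ± 7.38 FPKM in knockouts and 62.7 ± 1.52 FPKM in controls (log2 change 0.88; 1.28 after TMM), as did Xdh, xanthine dehydrogenase (log2 change 0.90; 1.25 after TMM), and Maoa, a monoamine oxidase, fell (log2 change -0.62; -0.28 after TMM). Cybb, the catalytic subunit of that oxidase and chosen after its values were seen, averaged 339 ± 24.4 FPKM in knockouts and 346 ± 18.7 FPKM in controls and was not called as deposited (limma adjusted p = 0.72 as deposited), but rose after TMM (log2 change 0.37). In lipid peroxide defence outside glutathione, 3 of 14 rose and 7 fell as deposited and 7 rose and 3 fell after TMM. Aifm2, which regenerates ubiquinol at membranes, rose, with 44.9 ± 0.963 FPKM in knockouts and 26.6 ± 4.92 FPKM in controls (log2 change 0.75; 1.13 after TMM), as did Acsl4, which loads polyunsaturated fatty acids into lipids (log2 change 0.71; 1.08 after TMM). Alox5, the lipoxygenase of leukotriene synthesis, fell, with 15.6 ± 1.77 FPKM in knockouts and 126 ± 19.3 FPKM in controls (log2 change -2.93; -2.55 after TMM), and Coq10b, which serves coenzyme Q, fell less (log2 change -0.65; -0.27 after TMM).

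**Figure D5:**
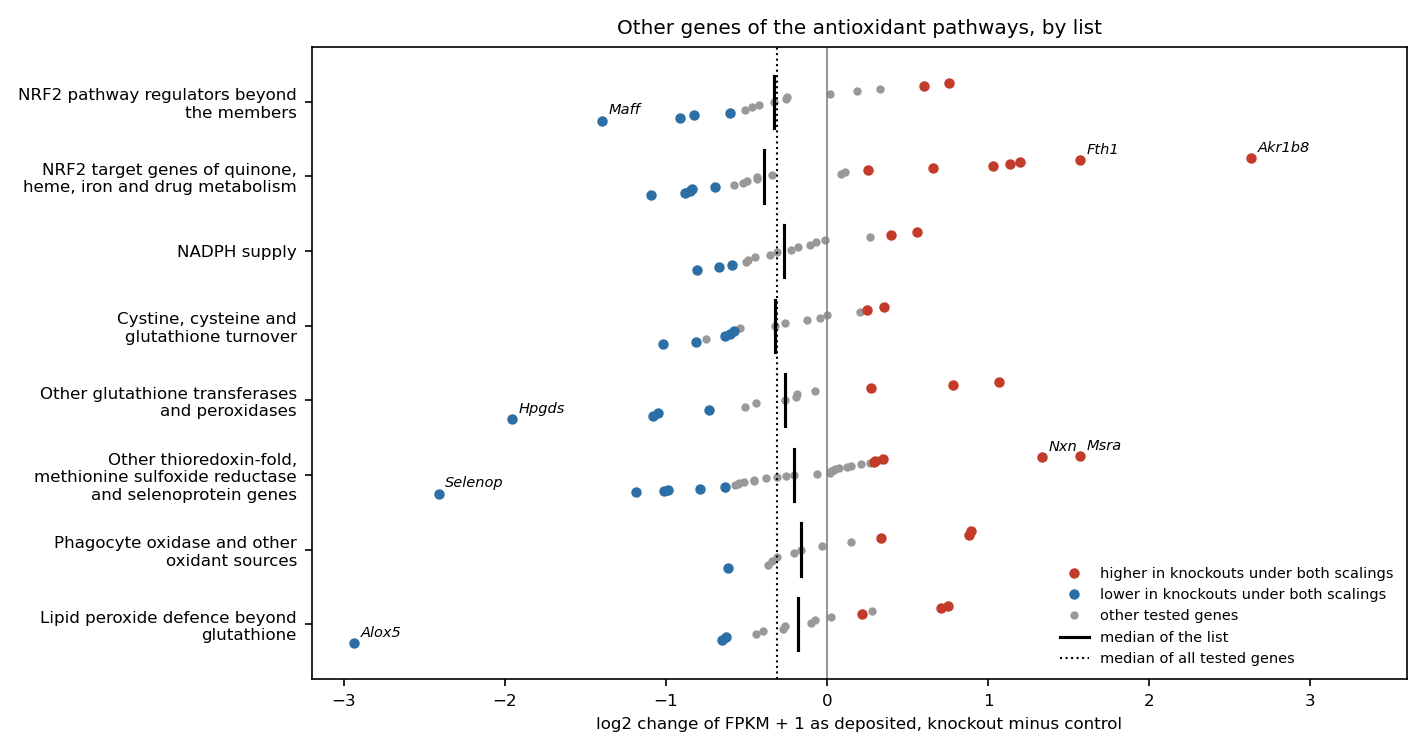
Log2 change as deposited (knockout minus control) of each tested gene of the 8 lists, red where higher and blue where lower in knockouts under both scalings, with list medians as bars and the median of all tested genes (-0.31) as a dotted line. List medians lie between -0.39 and -0.16, with single genes such as Akr1b8 at 2.63 and Alox5 at -2.93 far from them.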

How the data were processed

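RNA-seq was done on 3 knockout and 3 control libraries of sorted mouse alveolar macrophages. The deposited values are gene-level FPKM made by the authors with Bowtie2, RSEM and mm10, per the submitters' processing notes. Their versions, and the handling of strand, are not given in the sources used for this work. The table holds 18392 genes, of which 18342 IDs matched RefSeq and 50 did not, and 24 symbols turned into dates were restored from gene IDs. Counts are not given, so absolute depth is unknown and no counting interval is given. Relative depth, estimated from ratios of low FPKM values, was 96.33% to 104.8% of that of the first control library. Only ratios close to equal depth were searched, so a large difference in depth could not have been found.

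Genes averaging at least 1 FPKM over the 6 libraries were tested as log2(FPKM + 1), which understates changes of low genes, with limma 3.58.1 (R 4.3.3, trended and robust variance) and Benjamini-Hochberg adjustment over all tested genes; a call is an adjusted p under 0.05. TMM factors were computed from FPKM, unweighted, trimming 30% of log ratios and 5% of levels. The procedure was run on simulated data, where 73.7% of 1.5-fold and 96.9% of 2-fold changes were called and 4% of calls were false. Few genes changed in that simulation, in either direction and with no shift in scale between groups. These data differ in both respects, so it does not speak to the choice of scaling. The genes and lists were chosen with earlier results of these data known. All 38 genes are named; from each other list, up to 2 genes with the largest rises and 2 with the largest falls called under both scalings are named. Alternatives were median-of-ratios scaling, other pseudocounts and filters, limma without trend, a replicate block and leaving out each library.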

Additional observations from a re-analysis of the deposited data

How the results depend on the processing

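Scaling moved the results most. Over all genes, TMM gave 3427 rises and 2678 falls and median-of-ratios scaling 3313 and 2762, against 1194 and 6376 as deposited. Of the 38 genes, 6 fell after TMM and 7 after median-of-ratios scaling, against 15 as deposited. Of the further pathway genes, 60 rose and 31 fell after TMM, and 56 rose and 33 fell after median-of-ratios scaling. The log2 change turned positive after TMM and after median-of-ratios scaling for Nfe2l2 (0.17 and 0.16), Keap1 (0.16 and 0.15), Prdx4 (0.14 and 0.13), Gclc (0.25 and 0.24), Gclm (0.058 and 0.045) and Glrx3 (0.31 and 0.30). Summed FPKM after TMM, knockout over control, was 1.07 for regulators, 2.80 for peroxiredoxins, 1.52 for thioredoxin, 1.46 for glutathione supply, 1.28 for glutathione enzymes, 1.25 for superoxide and hydrogen peroxide enzymes and 1.69 for all 38 genes. In each library the 10 highest genes held a share of the summed FPKM. That share was 25.49% to 26.76% in knockout libraries and 13.19% to 13.91% in control libraries. Whether the lower deposited values of most genes reflect the cells or the scale was not tested. Leaving out 1 library after TMM scaling was chosen after seeing the data; the log2 change then ranged from -0.29 to 0.015 for Mafk, -0.06 to 0.026 for Prdx3, -0.07 to 0.0041 for Gpx1 and -0.09 to 0.068 for Glrx5 (0.041 without knockout replicate 1). With a replicate block, 30 of the 36 tested genes were called, 14 higher and 16 lower, Nfe2l2 (lower) and Txnrd1 (higher) being added; the block after TMM, also chosen after seeing the data, called 24. Deviations from the group means correlated at -0.105, -0.0556 and -0.0861 for same-numbered libraries, and at 0.0133 to 0.0878 for other numbers. The labels name no pairing, and with 3 libraries a group these values cannot decide whether samples were matched. With 3 libraries a group and no counts, small differences at low FPKM could not be resolved.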
